A study of Mus musculus with 12 samples.

Results

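The small Cajal body RNAs (Scarna genes in the mouse) are described here in 12 small RNA libraries from stem-like medulloblastoma cells, a cultured form of a cerebellar tumour. The family was taken as every row whose symbol starts with Scarna: 9 of the 4044 rows that remained once identical repeated rows were counted once, none of the 9 being such a repeat. Of these, 8 had 20 or more counts over the 12 libraries and are described below, and Scarna10, with 14 counts, is counted in the family total only. All libraries carry the genotype Math1-Cre; SmoM2, in which a Cre recombinase driven by regulatory sequences of Math1, a gene of cerebellar granule cell precursors, switches on an activated form of Smoothened, the transducer of Hedgehog signalling. Into these cells went CRISPR guides. There were 4 libraries labelled sgMiat, marked as a knockdown of the long non-coding RNA Miat, with guides sgMiat-6 and sgMiat-96. There were 4 libraries labelled sgMtdh, marked as a knockdown of Mtdh (metadherin), with guides sgMtdh-1 and sgMtdh-2. The other 4 carried the control guide sgGal4-4, labelled WT, aimed at the yeast gene Gal4. Each sgMiat and sgMtdh guide has 2 libraries, and the labels do not say whether libraries of a guide came from separate cultures, so every p-value below measures the spread between libraries, which may be technical. The labels give no age, clone or number of animals for the cells.

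Cajal bodies are compartments of the nucleus in which the RNAs of the spliceosome are modified and assembled. Small Cajal body RNAs direct these modifications: a short stretch of the guide pairs with a spliceosomal RNA, and the bound proteins then methylate a ribose (C/D box type) or turn a uridine into pseudouridine (H/ACA type) at a fixed distance from the pairing. Targets named here were worked out for the human RNAs of the same names: SCARNA2, SCARNA9, SCARNA8 and SCARNA13 for U2, which recognises the branch point (SCARNA13 also for U5), SCARNA6 and SCARNA10 for U5, which holds the exons together, and SCARNA17 for U4 and for U12 of the minor spliceosome.

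The sequences show which bases of the most counted members could pair with their targets, and which bases the deposited rows cover. Transcripts are from GENCODE M21 on GRCm38, written as DNA from 5′ to 3′, and capitals mark the longest run with no gap or mismatch (A with T, G with C) to the named spliceosomal RNA. Scarna6 lies at chr1:87784556-87784820 (plus strand), in an intron of Atg16l1. Scarna9 lies at chr9:15326264-15326333 (minus strand), in an intron of Cep295. For Scarna2, whose transcript of 414 bases on the minus strand of chromosome 3 overlaps no annotated gene, a stretch at chr3:108554543-108554602 and the counted stretch at chr3:108554342-108554402 are shown.
Scarna6, capitals pair with U5: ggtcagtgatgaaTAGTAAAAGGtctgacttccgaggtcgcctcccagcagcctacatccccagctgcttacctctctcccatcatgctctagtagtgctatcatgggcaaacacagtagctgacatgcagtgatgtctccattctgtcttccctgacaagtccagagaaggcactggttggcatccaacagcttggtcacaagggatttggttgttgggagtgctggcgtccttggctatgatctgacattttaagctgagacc
Scarna9, capitals pair with U2: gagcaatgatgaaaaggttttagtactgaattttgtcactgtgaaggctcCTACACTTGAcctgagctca
Scarna2, positions 150 to 209, capitals pair with U2: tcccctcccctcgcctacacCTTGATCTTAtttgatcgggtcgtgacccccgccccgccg
Scarna2, positions 350 to 410 (counted), capitals pair with U2: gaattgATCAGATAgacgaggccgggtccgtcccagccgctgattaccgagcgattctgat

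In Scarna6 the capitals are 10 bases at positions 14 to 23, opposite positions 38 to 47 of the mouse U5 gene Rnu5g, and the counted row starts inside them, at position 16. In Scarna9 they are 10 bases at positions 51 to 60, opposite positions 27 to 36 of the U2 gene Rnu2-10. Each of these runs is followed after 1 base by the letters CTGA, the D box of C/D guides, and both transcripts hold the C box letters TGATGA. Over the 1558 snoRNA and scaRNA transcripts of GENCODE M21, read on the transcript strand, 0.578% hold a run of 10 bases complementary to Rnu5g and 1.03% one to Rnu2-10, while 26.5% hold TGATGA and 79.3% hold CTGA. In Scarna2 a run of 10 bases at positions 170 to 179 faces positions 22 to 31 of Rnu2-10, and a run of 8 bases inside the counted stretch faces positions 58 to 65. A run of 8 bases to Rnu2-10 is found in 13.5% of the transcripts. In Scarna17 the longest run to Rnu12 was 5 bases, against 6 or 7 to the other RNAs searched, and U4 was not searched. These matches describe letters only.

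Except for Scarna13, the deposited rows do not cover the whole RNAs. The Scarna6 row spans 248 of 265 bases (93.6%), the Scarna9 row 42 of 70 (60.0%) and the Scarna2 row 61 of 414 (14.7%), so the U2-facing run of 10 bases in Scarna2 lies outside its row and that of Scarna9 lies outside the counted positions 4 to 45. Reads in these libraries are short, so every count is of fragments that fell in the row.

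Scarna17, at positions 74778394 to 74778455 on the minus strand of chromosome 18 (GRCm38), has a row of 62 of 79 bases and overlaps no other annotated gene. Scarna3a and Scarna3b lie in introns of Cop1 and Dcaf5, Scarna8 in an intron of Haus6, and Scarna13 in an intron of Snhg10.

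Library totals were 82457 to 161038 counts in sgMiat, 22785 to 152115 in sgMtdh and 33737 to 64366 in sgGal4. One row, Rn45s (the ribosomal RNA precursor), took 71.2 to 83.9% of the counts in sgMiat, 66.0 to 78.1% in sgMtdh and 53.8 to 56.2% in sgGal4, which leaves 13400 to 43443, 7208 to 36738 and 14801 to 28202 counts for all other rows. All 5 listed markers of neural progenitors and the granule lineage had counts in each group, and their summed level was 3577 to 6399 counts per 1000000 counts outside Rn45s in sgMiat, 1110 to 4137 in sgMtdh and 5946 to 6733 in sgGal4. The listed blood, muscle, epithelial, liver and fibroblast microRNAs that have a row had at most 1 count summed in any library, and those of mature neurons, oligodendrocytes and endothelium at most 4, 5 and 3. Miat, the target of the sgMiat guides, had 49 and 30 counts in the 2 libraries labelled sgMiat-6 and 1 and 0 in those labelled sgMiat-96, against 0, 1, 1 and 1 in sgGal4 (sgMtdh: 0, 0, 2 and 0). The libraries labelled sgMiat-6 thus go against the knockdown label in these short fragments, and group names below are labels only. No value of Mtdh was used. In such bulk libraries, fewer cells of a type and less RNA per cell cannot be told apart.

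Scarna6 held most of the family: 6563 of its counts, 84.6%. Scarna2 had 402 counts over the 12 libraries, Scarna9 278, Scarna3a 202, Scarna17 137, Scarna3b 84, Scarna8 52 and Scarna13 22. Scaled by length, Scarna6 also had the highest mean of the 8 in each group, at 47591 ± 19958 counts per kilobase per 1000000 counts outside Rn45s in sgMiat, 108694 ± 14720 in sgMtdh and 148403 ± 9379 in sgGal4 (SD, n = 4 each). On the same scale Scarna2 was at 21607 ± 24028 in sgMiat, 45245 ± 17529 in sgMtdh and 3411 ± 2721 in sgGal4, and Scarna9 at 15167 ± 11351, 28831 ± 17809 and 33886 ± 13080 in the same order. In sgMiat the highest library of Scarna2 stood above the lowest of Scarna6, and in sgMiat and sgMtdh the means of Scarna2 and Scarna9 lay within each other's spread.

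**Figure D1:**
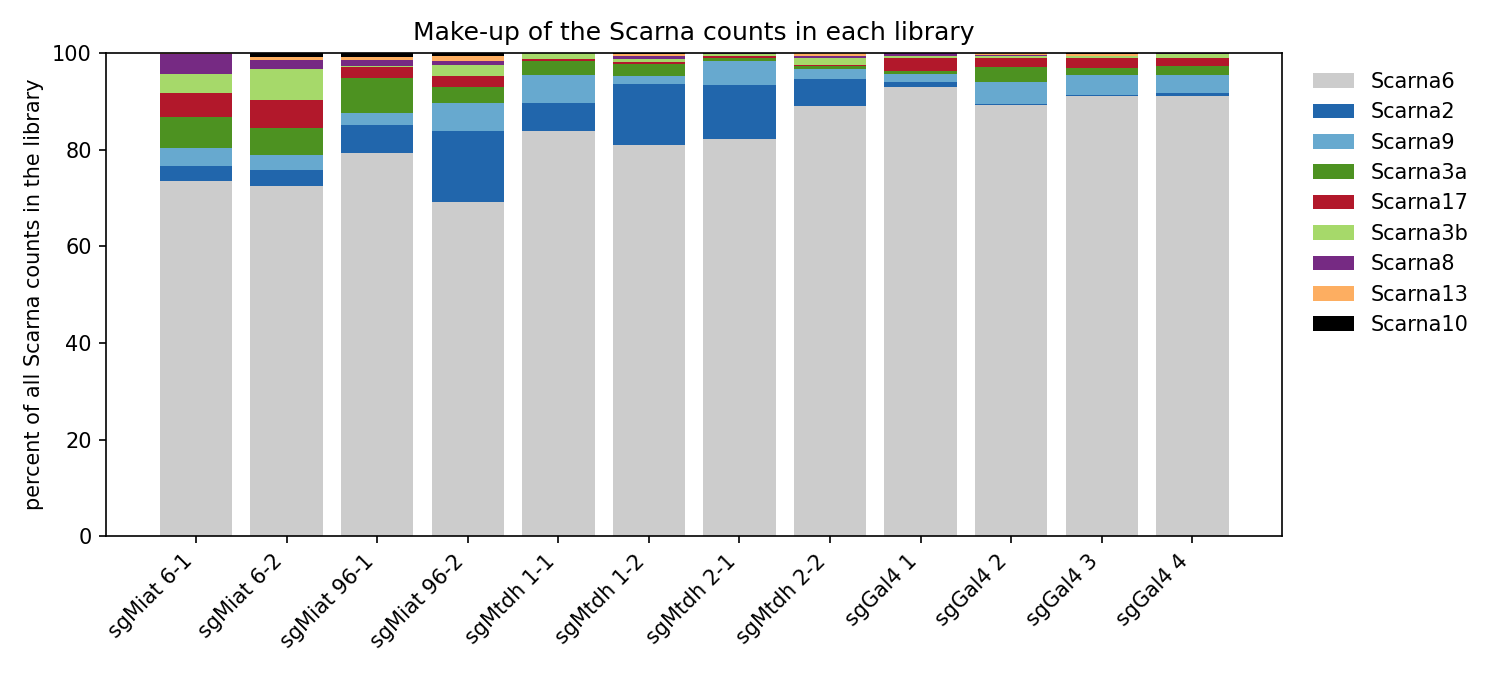
Stacked bars give each Scarna row's percent of all Scarna counts in a library (y axis, 0 to 100), for the 4 libraries of sgMiat, sgMtdh and sgGal4. Scarna6 (grey) makes up 69.1 to 79.3% in sgMiat, 80.9 to 89.0% in sgMtdh and 89.2 to 92.9% in sgGal4, and Scarna2 (dark blue) 3.07 to 14.8% in sgMiat, 5.48 to 12.6% in sgMtdh and 0.122 to 1.09% in sgGal4.

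Scarna6 therefore took the smallest part of the family in sgMiat, at 73.6 ± 4.23% of Scarna counts, an intermediate one in sgMtdh, at 84.0 ± 3.58%, and the largest in sgGal4, at 91.1 ± 1.52% (SD, n = 4 each). The libraries of the 3 groups did not overlap on this measure. Scarna2 ran the other way against sgGal4, at 6.75 ± 5.50% in sgMiat, 8.76 ± 3.67% in sgMtdh and 0.527 ± 0.443% in sgGal4. Scarna9, in contrast, held 3.78 ± 1.44% in sgMiat, 3.64 ± 2.03% in sgMtdh and 3.48 ± 1.27% in sgGal4, differences well within the spread. Shares within a family are bound to each other: where 1 member falls the others' shares go up.

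For tests, edgeR's quasi-likelihood fit was run over all 147 rows that passed its filter on low counts, with TMM scaling and Benjamini-Hochberg adjustment over all of them, and a row is called at an adjusted p under 0.05. Of the 8 described members 5 were tested (Scarna6, Scarna2, Scarna9, Scarna3a and Scarna17). Scarna2 reached the filter's level in 4 sgMtdh, 2 sgMiat and 1 sgGal4 libraries, and Scarna17 in 1 sgMiat and 4 sgGal4 libraries, so how many members were tested and called is no support for a change of the family. Levels below are counts per 1000000 counts (CPM) after TMM scaling.

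The U5 guide Scarna6 was lower in the libraries labelled sgMiat. It had 312, 261, 383 and 215 counts there (6-1, 6-2, 96-1, 96-2), 204, 790, 945 and 325 in sgMtdh (1-1, 1-2, 2-1, 2-2) and 510, 766, 745 and 1107 in sgGal4 (1 to 4). In CPM these were 2432, 2598, 4775 and 4465 in sgMiat, 8391, 6678, 9951 and 10810 in sgMtdh, and 11120, 10720, 11080 and 13119 in sgGal4. Each sgMiat library lay under every library of the other groups, with both sgMiat-6 libraries lowest of all, while the sgMtdh and sgGal4 libraries overlapped in CPM. With Rn45s left out of the totals, their shares did not overlap, at 2.70 ± 0.365% in sgMtdh and 3.68 ± 0.233% in sgGal4, nor as a share of all counts, at 0.759 ± 0.218% in sgMtdh and 1.65 ± 0.118% in sgGal4 (SD, n = 4 each; exact permutation p = 0.0286, adjusted p = 0.0762 for each), whereas as a share of the Snora, Snord and Scarna counts they did (exact permutation p = 0.400). In CPM, libraries of a pair of groups did not overlap for 2 of the 5 tested members in sgMiat against sgGal4 (Scarna6 and Scarna17), 2 in sgMtdh against sgGal4 (Scarna2 and Scarna17) and 2 in sgMtdh against sgMiat (Scarna6 and Scarna17), against 20.4%, 20.4% and 8.84% of all tested rows.

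Scarna6 averaged 3567 ± 1224 CPM in sgMiat against 11510 ± 1088 CPM in sgGal4 (SD, n = 4 each), a level 3.23-fold lower. The log2 fold change was -1.69 (SE 0.30, edgeR adjusted p = 0.00169), in a comparison that called 12.9% of the tested rows. It was lower with either guide: -2.19 for sgMiat-6 (SE 0.24, edgeR adjusted p = 2.64e-05, where 26.5% of rows were called) and -1.32 for sgMiat-96 (SE 0.23, edgeR adjusted p = 5.54e-04, where 19.0% were called). The share of Rn45s, higher in sgMiat than in sgGal4, moves with this result, and its part was not tested. For the plain shares of counts outside Rn45s, the log2 ratio of the group means of Scarna6 was -1.64.

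In sgMtdh, Scarna6 averaged 8957 ± 1820 CPM against 11510 ± 1088 CPM in sgGal4, with a log2 fold change of -0.36 (SE 0.30, edgeR adjusted p = 0.451). The values were -0.62 for sgMtdh-1 (SE 0.22, edgeR adjusted p = 0.0878, where 10.9% of rows were called) and -0.15 for sgMtdh-2 (SE 0.22, edgeR adjusted p = 0.633, where 18.4% were called). With library totals alone as the scale, the sgMtdh value was -1.12 and passed (edgeR adjusted p = 0.0253); on that scale the median of all tested rows also moved, by -0.83. Set directly against sgMiat, sgMtdh libraries had 2.51-fold more Scarna6, a log2 fold change of 1.33 (SE 0.30, edgeR adjusted p = 0.0214), in a comparison that called 4.08% of rows. That call ended under 7 of the other settings run, among them the fit to these 2 groups alone (edgeR adjusted p = 0.222), and also without any 1 of 6 libraries (1 and 2 of sgGal4, 6-1 and 6-2 of sgMiat, 2-1 and 2-2 of sgMtdh), where it lay between 1.14 and 1.30.

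**Figure D2:**
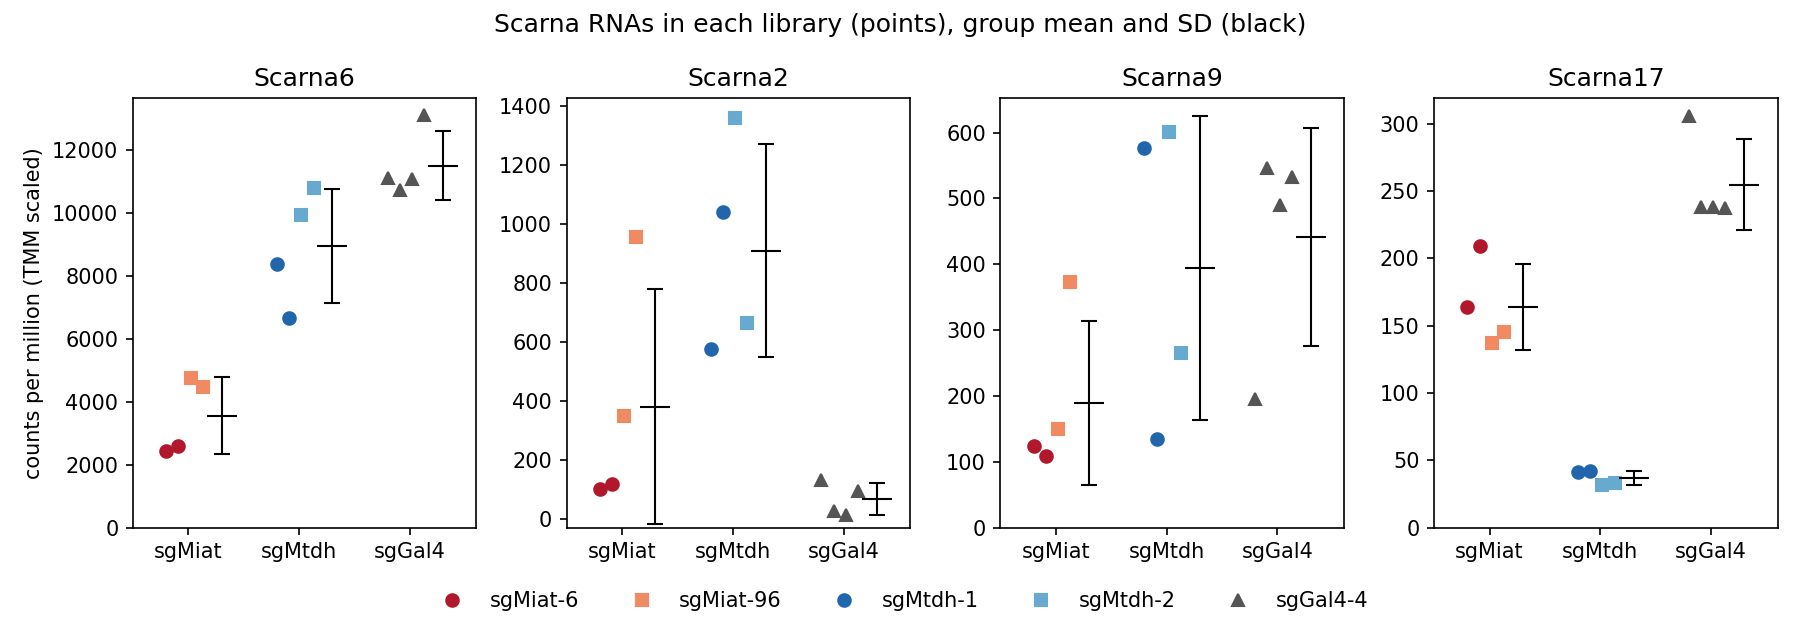
TMM-scaled CPM (y axis, linear, own range in each panel) of Scarna6, Scarna2, Scarna9 and Scarna17 in each library; colours and shapes mark the guide and black bars the group mean ± SD (n = 4). Scarna6 is lowest in sgMiat, Scarna2 highest in sgMtdh and in sgMiat-96, and Scarna17 lies between 31.6 and 42.3 CPM in sgMtdh.

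Scarna2, a U2 guide, had the largest fold change of the 5 tested members in both comparisons with sgGal4. Its counts were 13, 12, 28 and 46 in sgMiat, 14, 123, 129 and 20 in sgMtdh and 6, 2, 1 and 8 in sgGal4. In CPM these were 101, 119, 349 and 955 in sgMiat, 576, 1040, 1358 and 665 in sgMtdh, and 131, 28.0, 14.9 and 94.8 in sgGal4. All sgMtdh libraries stood above all sgGal4 libraries, whereas in sgMiat the sgMiat-6 libraries lay within the sgGal4 range and the sgMiat-96 libraries above it.

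In sgMtdh the mean of Scarna2 was 910 ± 360 CPM against 67.1 ± 55.0 CPM in sgGal4 (SD, n = 4 each), 13.6-fold higher. The log2 fold change was 3.81 (SE 0.76, edgeR adjusted p = 0.00264), where 10.9% of rows were called. Both guides showed it, at 3.67 for sgMtdh-1 (SE 0.62, edgeR adjusted p = 8.66e-04) and 3.98 for sgMtdh-2 (SE 0.61, edgeR adjusted p = 2.67e-04). By counting error alone, the summed rates of 286 counts in sgMtdh and 17 in sgGal4 differed 16.2-fold (exact Poisson 95% interval 9.91 to 28.1). Scarna2 reached the filter's level in 4 sgMtdh, 2 sgMiat and 1 sgGal4 libraries. It thus entered the test mainly through the group where it was high, which the p-values do not allow for. The share of Rn45s was also higher in sgMtdh than in sgGal4 and the summed level of the neural progenitor markers lower, and the part of either in this result or in that of Scarna17 was not tested. The correlation of libraries of one guide, as limma estimated it over all tested rows, was 0.485, and with guide as a random effect the adjusted p from limma-voom was 0.368 at a log2 fold change of 4.30.

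In sgMiat, Scarna2 averaged 381 ± 399 CPM, an SD as large as the mean, and the log2 fold change against sgGal4 was 2.47 (SE 0.75, edgeR adjusted p = 0.0374). That call rests on the sgMiat-96 libraries: without them the log2 fold change was 0.61 (edgeR adjusted p = 0.625), and it also ended without any 1 of 9 libraries (all 4 of sgGal4, 96-1 and 96-2, and 1-1, 2-1 and 2-2 of sgMtdh), where the adjusted p was 0.0501 to 0.156. The call ended under 7 of the 16 other settings run, removal of sgMiat-96 among them. Limma-voom was another of these (limma-voom adjusted p = 0.189). By guide, the values were 0.76 for sgMiat-6 (SE 0.70, edgeR adjusted p = 0.505) and 3.29 for sgMiat-96 (SE 0.63, edgeR adjusted p = 0.00120). The guides differed from each other by 2.52 (SE 0.70, edgeR adjusted p = 0.0140), in a comparison that called 23.8% of rows, a call that ended without any 1 of 6-1, 6-2 and 96-2 (edgeR adjusted p 0.115, 0.0734 and 0.184). Between sgMtdh and sgMiat the libraries overlapped in CPM, though not as a share of all counts, with a log2 fold change of 1.34 (SE 0.65, edgeR adjusted p = 0.231).

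Scarna9, the other tested U2 guide, did not follow Scarna2. Its counts were 16, 11, 12 and 18 in sgMiat, 14, 16, 57 and 8 in sgMtdh and 9, 39, 33 and 45 in sgGal4. It averaged 189 ± 124 CPM in sgMiat, 394 ± 230 CPM in sgMtdh and 442 ± 165 CPM in sgGal4 (SD, n = 4 each), and the libraries of all pairs of groups overlapped on this scale (as a share of all counts, those of sgMiat lay under those of sgGal4). The log2 fold change was -1.29 in sgMiat (SE 0.55, edgeR adjusted p = 0.144; with library totals alone -2.23, edgeR adjusted p = 0.00575) and -0.20 in sgMtdh (SE 0.54, edgeR adjusted p = 0.821). Set against sgGal4, the libraries labelled sgMiat-6 gave -1.91 (SE 0.66, edgeR adjusted p = 0.0437), a call that ended without any 1 of 6 libraries (2, 3 and 4 of sgGal4, 6-1, 6-2 and 96-1 of sgMiat), where the adjusted p was 0.0772 to 0.210.

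Scarna17, whose human counterpart guides U4 and U12, was low in sgMtdh. It had 21, 21, 11 and 7 counts in sgMiat, 1, 5, 3 and 1 in sgMtdh and 14, 17, 16 and 20 in sgGal4. In CPM these were 164, 209, 137 and 145 in sgMiat, 41.1, 42.3, 31.6 and 33.3 in sgMtdh, and 305, 238, 238 and 237 in sgGal4. The 3 groups did not overlap, with sgMtdh at the bottom and sgGal4 at the top.

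Scarna17 averaged 37.1 ± 5.42 CPM in sgMtdh against 255 ± 33.8 CPM in sgGal4 (SD, n = 4 each), 6.87-fold lower, with a log2 fold change of -2.72 (SE 0.51, edgeR adjusted p = 0.00171). Both guides gave it, at -2.54 for sgMtdh-1 (SE 0.65, edgeR adjusted p = 0.0157) and -2.91 for sgMtdh-2 (SE 0.68, edgeR adjusted p = 0.00999). The sgMtdh-1 call ended without 96-1 of sgMiat (-2.38) or without 1-2 of sgMtdh (-2.57). The sgMtdh-2 call ended without 2-1 (-2.86) or without 2-2 (-2.94). The sgMtdh side rests on 10 counts in all, against 67 in sgGal4. The ratio of these summed rates was 0.143, with an exact Poisson 95% interval of 0.0657 to 0.280 that covers counting error only. Scarna17 reached the filter's level in 4 sgGal4, 1 sgMiat and 0 sgMtdh libraries. It thus entered the test mainly through the group where it was high, which its p-value does not allow for. With guide as a random effect the limma-voom adjusted p was 0.362, with no filter on low counts the edgeR adjusted p was 0.0573, and without guide sgMtdh-2 it was 0.0605.

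In sgMiat, Scarna17 averaged 164 ± 32.1 CPM, with a log2 fold change of -0.62 against sgGal4 (SE 0.42, edgeR adjusted p = 0.390), not past the threshold although no library overlapped. With library totals alone as the scale it was -1.45 and passed (edgeR adjusted p = 0.0469). Between sgMtdh and sgMiat it was 4.42-fold lower in sgMtdh, with a log2 fold change of -2.10 (SE 0.51, edgeR adjusted p = 0.0265). That call ended under 8 of the other settings run, and without any 1 of the same 6 libraries as for Scarna6 (adjusted p 0.0557 to 0.0941).

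**Figure D3:**
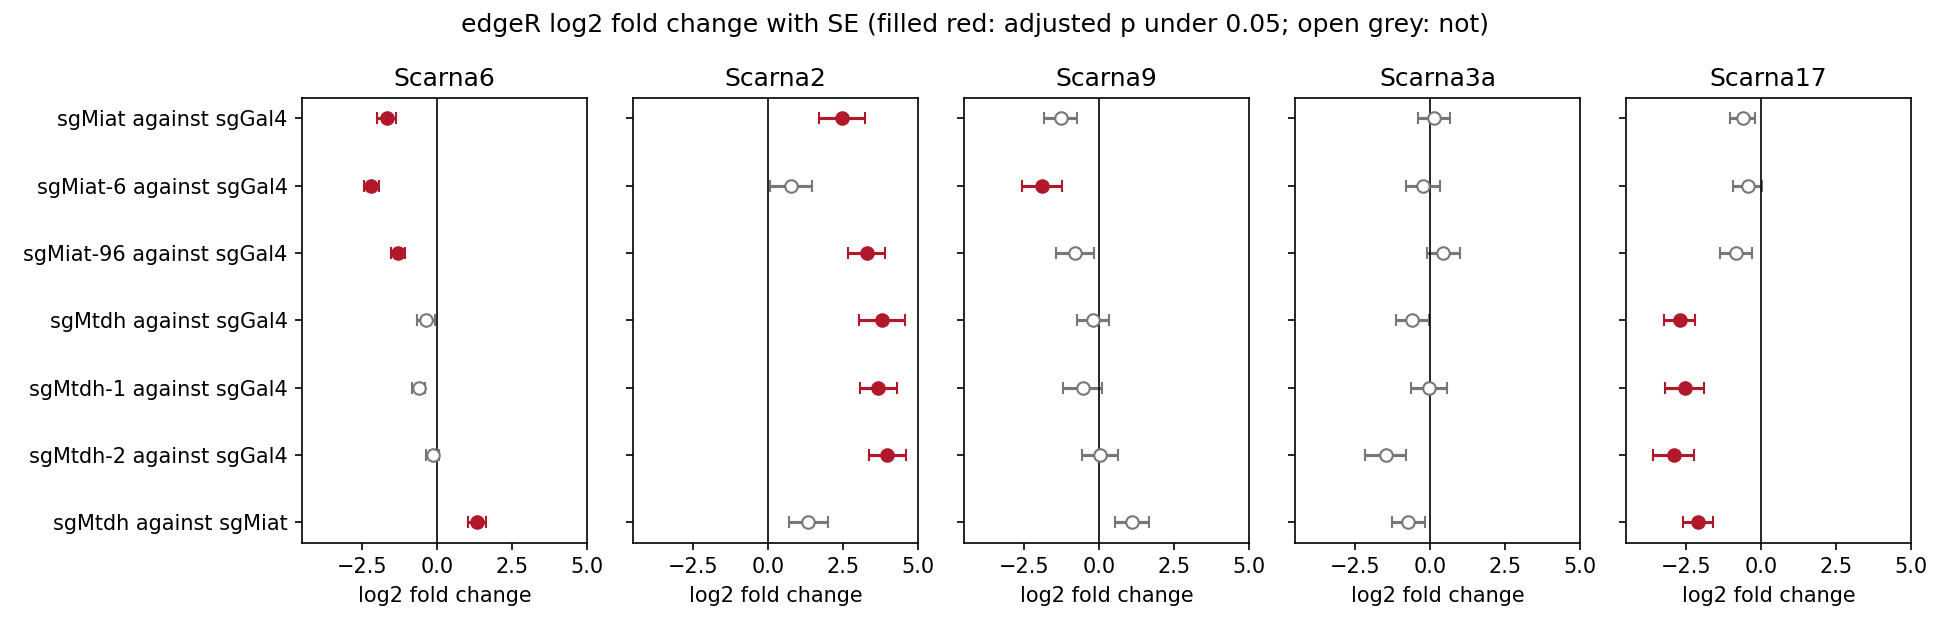
edgeR log2 fold change (x axis, points) with SE (bars) of the 5 tested Scarna rows, for each group and guide against sgGal4 and for sgMtdh against sgMiat (rows); filled red points have an adjusted p under 0.05. Scarna6 lies left of 0 in both sgMiat guides, Scarna17 in both sgMtdh guides, and Scarna2 right of 0 in sgMiat-96 and both sgMtdh guides.

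In each comparison with sgGal4, then, 1 tested member was called higher and 1 lower (Scarna2 and Scarna6 in sgMiat, Scarna2 and Scarna17 in sgMtdh), and 3 were not called; over all 147 tested rows 12.9% were called in sgMiat and 10.9% in sgMtdh. Between the guides sgMtdh-2 and sgMtdh-1 no row passed in edgeR (0% of rows called; 16 rows, no Scarna row among them, at an unadjusted p under 0.05, and 1 called by DESeq2). Scarna2 differed by 0.31 on the log2 scale there. The median log2 fold change of the 5 tested members was -0.62 in sgMiat and -0.36 in sgMtdh, against 0.18 and 0.01 over all tested rows. Scarna2 and Scarna17 passed the filter mainly through groups where they were high, so this median is no measure of the family. Of the 52 tested Snord rows (C/D guides of ribosomal RNA) 3 were called higher and none lower in sgMiat, with a median of 0.20. In sgMtdh edgeR called 0 of them (6 at an unadjusted p under 0.05, 2 called by DESeq2), with a median of -0.23. Of the 8 tested Snora rows (H/ACA guides) 1 was called higher in sgMiat, and in sgMtdh edgeR and DESeq2 called 0 (1 at an unadjusted p under 0.05 with either).

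The balance between members needs no scaling between libraries, since both counts come from the same library. Per 100 counts of Scarna6 there were 4.17, 4.60, 7.31 and 21.4 counts of Scarna2 in sgMiat, 6.86, 15.6, 13.7 and 6.15 in sgMtdh, and 1.18, 0.261, 0.134 and 0.723 in sgGal4. Every sgMiat and sgMtdh library lay above every sgGal4 library. In the sgMiat-6 libraries, however, Scarna2 itself lay within the sgGal4 range, at 101 and 119 CPM. Scarna6 was lower there (log2 fold change -2.19). The log2 ratio (0.5 added to each count) was higher by 3.91 in sgMiat and by 4.30 in sgMtdh than in sgGal4, and exact permutation gave p = 0.0286 for each, the smallest that 4 against 4 libraries allow, and 0.104 after adjustment over 84 ratio tests. Of the 84 ratio tests, 23 had an unadjusted p under 0.05 and 0 passed after adjustment. With that smallest p, a test could pass only if most of the 84 reached it, so the lack of a pass says little.

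The ratio of Scarna17 to Scarna6 moved in opposite directions in sgMiat and sgMtdh. Per 100 counts of Scarna6 there were 6.73, 8.05, 2.87 and 3.26 counts of Scarna17 in sgMiat, 0.490, 0.633, 0.317 and 0.308 in sgMtdh, and 2.75, 2.22, 2.15 and 1.81 in sgGal4. The log2 ratio was higher by 1.12 in sgMiat than in sgGal4, and in sgMtdh it fell by 2.06 relative to sgGal4 (exact permutation p = 0.0286, adjusted p = 0.104 in each case). In CPM both rows were lower in sgMiat than in sgGal4, Scarna17 by 1.55-fold and Scarna6 by 3.23-fold. The higher ratio in sgMiat is thus no rise of Scarna17. Scarna9 per Scarna6 did not separate any pair of groups: 5.13, 4.21, 3.13 and 8.37 counts per 100 in sgMiat, 6.86, 2.03, 6.03 and 2.46 in sgMtdh, and 1.76, 5.09, 4.43 and 4.07 in sgGal4.

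**Figure D4:**
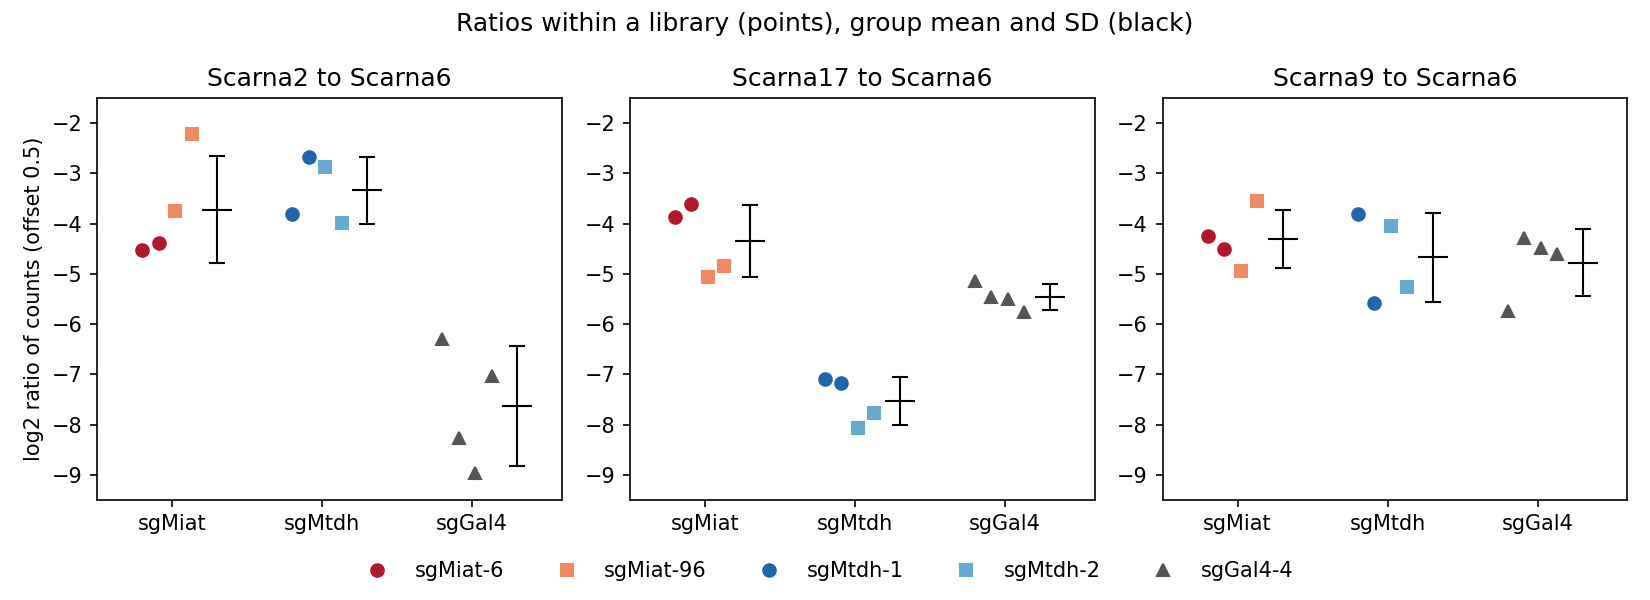
Log2 ratio of Scarna2, Scarna17 and Scarna9 counts to Scarna6 counts in the same library (y axis, 0.5 added to each count), with group mean ± SD in black (n = 4). For Scarna2 both sgMiat and sgMtdh lie above sgGal4, for Scarna17 sgMtdh lies lowest, and for Scarna9 the groups overlap.

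Scarna3a and Scarna3b share their place with microRNA precursors, which matters for what their counts hold. The Scarna3a transcript, at chr1:159340283-159340422 (plus strand, GRCm38, GENCODE M21), is printed with the part that it shares with the Mir1843b precursor (RefSeq) in capitals.
Scarna3a, capitals shared with Mir1843b: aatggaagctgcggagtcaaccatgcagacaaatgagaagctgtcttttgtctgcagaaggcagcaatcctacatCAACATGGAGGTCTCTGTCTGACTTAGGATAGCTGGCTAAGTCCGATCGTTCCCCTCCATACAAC

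The whole Mir1843b precursor of 66 bases lies inside the 118 bases of the Scarna3a row. The rows had equal counts in 11 of 12 libraries, 202 in all for Scarna3a and 200 for Mir1843b, so the same reads may be counted under both names. Scarna3b and Mir1843a were equal in 6 libraries (84 and 72 counts in all), and Scarna13 and Mir3069 in 7 (22 and 8 counts). Among those 7 are sgGal4 1 and 4 and sgMtdh 1-1 and 2-1, where Scarna13 and Mir3069 both had 0 counts. In no library did the microRNA exceed the Scarna row.

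**Figure D5:**
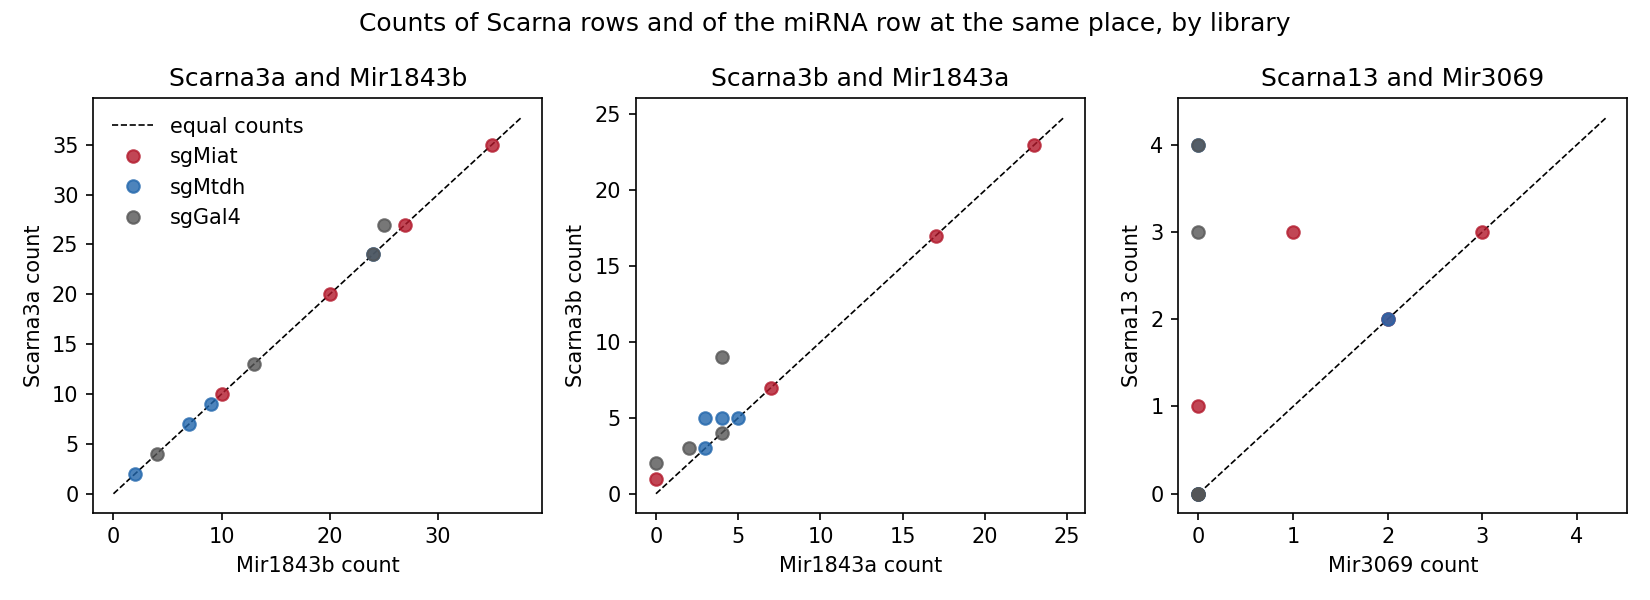
Count of a Scarna row (y axis) against the count of the microRNA row at the same place (x axis) in each of the 12 libraries, with the line of equal counts. For Scarna3a and Mir1843b 11 points lie on the line, and no point in any panel lies below it.

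Scarna3a had 27, 20, 35 and 10 counts in sgMiat, 7, 24, 9 and 2 in sgMtdh and 4, 27, 13 and 24 in sgGal4. All groups overlapped, with means of 263 ± 115 CPM in sgMiat, 163 ± 102 CPM in sgMtdh and 236 ± 124 CPM in sgGal4 (SD, n = 4 each). The log2 fold change was 0.14 in sgMiat (SE 0.52, edgeR adjusted p = 0.870) and -0.59 in sgMtdh (SE 0.56, edgeR adjusted p = 0.522), and the first changed sign under 4 other settings and without any 1 of 3 libraries.

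The 3 remaining rows were too low for the edgeR filter, and their shares of the counts outside Rn45s were compared by exact permutation over libraries, 24 tests in all for the 8 members. Scarna3b had 17, 23, 1 and 7 counts in sgMiat, 3, 5, 5 and 5 in sgMtdh and 3, 2, 4 and 9 in sgGal4. The sgMiat libraries thus spanned the range of both other groups. Scarna8, a guide of U2 in human cells, had 17, 7, 6 and 3 counts in sgMiat, 0, 6, 2 and 2 in sgMtdh and 3, 3, 0 and 3 in sgGal4. Its share was 0.0270 ± 0.00829% in sgMiat, 0.0101 ± 0.00849% in sgMtdh and 0.0112 ± 0.00846% in sgGal4 (SD, n = 4 each). The sgMiat libraries lay above those of sgGal4 and of sgMtdh (exact permutation p = 0.0286, adjusted p = 0.0762 for each). That separation was not met on the other scales: as a share of all counts the libraries overlapped (exact permutation p = 0.486 against sgGal4 and 0.143 between sgMtdh and sgMiat), and so they did as a share of the Snora, Snord and Scarna counts (exact permutation p = 0.0857 and 0.114). Scarna13, whose human counterpart is U93, had 1, 2, 3 and 3 counts in sgMiat, 0, 4, 0 and 2 in sgMtdh and 0, 3, 4 and 0 in sgGal4, too few to compare. Of the 24 share tests, 9 had an unadjusted exact permutation p under 0.05 and 0 passed after adjustment. Here too a test could pass only if most of the 24 reached the smallest exact permutation p, 0.0286, so the lack of a pass says little.

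Among the spliceosomal RNAs themselves, the deposited rows used here hold U11 and U12 of the minor spliceosome, and Rnu6, which had 0 counts in all libraries. No row had a symbol starting with Rnu2, Rnu4 or Rnu5, and any rows of U1 were left out, so U1, U2, U4 and U5 were not analysed here. Rnu12, a target of human SCARNA17, had 18, 4, 9 and 12 counts in sgMiat, 1, 2, 5 and 18 in sgMtdh and 8, 11, 12 and 8 in sgGal4. Rnu11 had 34, 3, 26 and 11 counts in sgMiat, 0, 39, 13 and 8 in sgMtdh and 4, 18, 10 and 9 in sgGal4. Libraries of all groups overlapped for both, and edgeR and DESeq2 called neither in any group or guide comparison (with either tool, 1 had an unadjusted p under 0.05 in sgMtdh-1 against sgGal4 and 1 in sgMtdh-2 against sgMtdh-1). Terc, the telomerase RNA, which also passes through Cajal bodies, and Snhg10, the host of Scarna13, had 1 count each in all.

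By the likeness of log2 CPM over the 12 libraries, described with Pearson's r among 91 other rows with 200 or more counts, Scarna6 ran closest to Mir30d (r = 0.88) and to 2 rows of C430049B03Rik (r = 0.80 and 0.79). Scarna2 ran closest to Serf2 (r = 0.91), 5730488B01Rik (r = 0.89) and Rprl3 (r = 0.89), and Scarna17 to Mirlet7c-2 (r = 0.79), Mir181a-2 (r = 0.76) and Snord42b (r = 0.74). Scarna9 reached at most 0.62, also with Mir30d. Scarna3a ran with Mir1843b (r = 0.999), which lies inside its row and may hold the same reads, then Snord65 (r = 0.67) and Snord82 (r = 0.51). Points share their groups and libraries, so these values describe the pattern only.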

How the data were processed

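Per the labels' protocols, RNA from a Qiagen column kit went into small RNA libraries. Per the submitters' processing notes, STAR and the builds GRCm38 and mm10 were used; for the counter, the trimming, strand and reads with several matches, the setting is not given in the sources used here. Each deposited table gives 4529 RefSeq rows with the authors' raw count, FPKM and TPM. Counts were tested; the deposited FPKM gave the row lengths, and the deposited TPM was not used. Identical repeated rows (485) were counted once, and 147 rows passed edgeR's filterByExpr. Fits used edgeR 4.0.16 (quasi-likelihood, TMM, all 12 libraries, once by group and once by guide), with limma 3.58.1 and DESeq2 1.42.0 as alternatives in R 4.3.3, and were checked on simulated counts. Exact permutation tests used scipy 1.17.1 and are two-sided. Library pairs of 1 guide differed beyond sampling noise (chi-squared tests), so none was merged. Library depths stand in the results. Positions and sequences come from GENCODE M21 and RefSeq on GRCm38. Named rows were all Scarna rows with 20 or more counts, the listed spliceosomal and guide RNAs, and the 3 rows most like each tested member. The members and lists were chosen with earlier results of these data known. Intervals cover counting error only. Alternatives in scaling, filter, tool and libraries kept are given in the closing section.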

Additional observations from a re-analysis of the deposited data

Results flagged for a closer look

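Gaps within a group were examined in 24 groups of 4 libraries, where chance flags about 1 in 20. Scarna6 was lowest by far in sgMtdh 1-2, at 21504 counts per 1000000 counts outside Rn45s against 28302 to 29065 in the other 3 (gap over range 0.899). Scarna9 was lowest in sgGal4 1, at 608 against 1596 to 1793 (0.833). Scarna3a was highest in sgMiat 96-1, at 1473 against 603 to 746 (0.835). The guides of sgMiat differed from each other, by test of the difference, for Scarna6 (sgMiat-96 higher than sgMiat-6 by 0.88 on the log2 scale, edgeR adjusted p = 0.0163) and for Scarna2 (higher by 2.52, edgeR adjusted p = 0.0140). The Scarna6 difference lost its call without any 1 of 6-1, 6-2 and 96-1, at 0.83, 0.93 and 0.43 (edgeR adjusted p 0.123, 0.0748 and 0.359), and with library totals alone (edgeR adjusted p = 0.159). The Scarna2 difference lost its call without any 1 of 6-1, 6-2 and 96-2, at 2.41, 2.64 and 1.65 (edgeR adjusted p 0.115, 0.0734 and 0.184).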

How the results depend on the processing

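Adjusted p is from edgeR unless named. The replicate block used the last number of each label, which does not pair the libraries: deviations of same-numbered libraries had a median correlation of -0.016 over 16 pairs. Numbers 3 and 4 occur in sgGal4 only, so the block in effect took sgGal4 3 and 4 out of the comparisons. With the block the counts of rows called (sgMiat against sgGal4, sgMtdh against sgGal4, sgMtdh against sgMiat) were 1, 0 (22 at an unadjusted p under 0.05) and 2, in place of 19, 16 and 6. With it Scarna6 gave -1.61 in sgMiat, the only other setting that ended this call, and 1.33 between sgMtdh and sgMiat. Scarna2 gave 2.23 in sgMiat and 3.59 in sgMtdh. Scarna17 gave -2.82 in sgMtdh and -2.10 against sgMiat, and Scarna9 gave 0.038 in sgMtdh. No Scarna row was called with the block in any of these comparisons. With guide as a random effect in limma-voom the counts were 2, 0 (11 at an unadjusted p under 0.05) and 3, Scarna2 gave 1.99 in sgMiat and 4.30 in sgMtdh, and Scarna17 gave -2.51 in sgMtdh and -1.95 against sgMiat, none of these called.

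Library totals alone moved the median of all rows by -0.84 in sgMiat and -0.83 in sgMtdh. They called 33 rows in sgMiat (6 higher, 27 lower, in place of 15 and 4) and 46 in sgMtdh (7 higher, 39 lower, in place of 12 and 4), with Scarna17 at -1.45 (now called, adjusted p = 0.0469), Scarna9 at -2.23 (now called, 0.00575), Scarna2 at 1.52 (no longer called, 0.0927) and Scarna3a at -0.65 in sgMiat, Scarna6 at -1.12 in sgMtdh (now called, 0.0253), and Scarna17 at -2.13 between sgMtdh and sgMiat (no longer called, 0.0572). On that scale Scarna6 in sgMiat was -2.54, and Scarna2 and Scarna17 in sgMtdh were 2.99 and -3.58, all still called; less the shift they were -1.70, 3.83 and -2.75. DESeq2 called 12 rows in sgMtdh against sgMiat and gave Scarna17 -0.67 in sgMiat with no adjusted p. Limma-voom gave Scarna2 2.02 in sgMiat, no longer called (limma-voom adjusted p = 0.189). In sgMtdh against sgMiat it gave Scarna2 2.05, now called (limma-voom adjusted p = 0.0482). Scarna17 was -1.90 there, no longer called (limma-voom adjusted p = 0.0655).

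With no filter, 10 rows were called in sgMtdh. Calls then ended for Scarna2 in sgMiat (2.23, adjusted p = 0.0748) and Scarna17 in sgMtdh (-2.94, adjusted p = 0.0573). In sgMtdh against sgMiat they ended for Scarna17 (-2.14, adjusted p = 0.502) and Scarna6 (1.17, adjusted p = 0.416). With rows of 20 or more counts the calls were 29, 9 and 11. In sgMtdh against sgMiat Scarna17 was -2.20 (adjusted p = 0.0760) and Scarna6 1.21 (adjusted p = 0.0509), both no longer called. Fits to 2 groups gave Scarna3a -0.053 in sgMiat and Scarna9 0.013 in sgMtdh. In sgMtdh against sgMiat they gave 2 calls, with Scarna6 at 1.27 no longer called (adjusted p = 0.222). Without guide sgMiat-6, Scarna17 was -1.93 and Scarna6 0.87 in sgMtdh against sgMiat. Without sgMiat-96, Scarna2 was 0.61 (no longer called, adjusted p = 0.625) and Scarna3a -0.40 in sgMiat, and 25 rows were called in sgMtdh. In sgMtdh against sgMiat 45 rows were called, with Scarna2 at 2.98 (now called, adjusted p = 0.00304). Without sgMtdh-1, Scarna2 was 2.29 (no longer called, adjusted p = 0.109) and Scarna3a -0.15 in sgMiat, and 9 rows were called in sgMtdh. Scarna6 was 1.29 in sgMtdh against sgMiat, no longer called (adjusted p = 0.0509). Without sgMtdh-2, 7 rows were called in sgMtdh, with Scarna17 at -2.49 (no longer called, adjusted p = 0.0605) and Scarna3a at 0.047. In sgMtdh against sgMiat 2 rows were called. Scarna17 at -1.98 and Scarna6 at 1.09 were no longer called there (adjusted p = 0.352 for each). The cause of these shifts was not tested, beyond the fewer libraries fitted.

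Leaving out each library, the counts of rows called ranged from 9 to 28, 8 to 18 and 2 to 15. In sgMiat, Scarna2 ranged from 1.51 to 2.82 and Scarna3a from -0.43 to 0.42. In sgMtdh, Scarna9 ranged from -0.85 to 0.062. In sgMtdh against sgMiat, Scarna17 ranged from -2.30 to -1.99, Scarna2 from 0.98 to 2.28 and Scarna6 from 1.14 to 1.41. Between sgMtdh-2 and sgMtdh-1, Scarna2 ranged from -0.33 to 0.85. By group, Scarna6 in sgMiat, and Scarna2 and Scarna17 in sgMtdh, kept their calls without any 1 library. The calls of Scarna17 by sgMtdh guide did not. Depth limits Scarna17 in sgMtdh (1 to 5 counts a library) and the rows under 100 counts. The 3 ratios among Scarna2, Scarna6 and Scarna17 kept their signs under offsets of 0.1 and 2.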
